A study of Mus musculus with 6 samples.

Results

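The genes described here carry thyroid hormone into brain cells, activate it, bind it in the nucleus and respond to it. They are the 8 genes Slco1c1, Crym, Dio2, Thra, Thrb, Hr, Klf9 and Nrgn, taken with every probe set that the array annotation gives to a single one of them, 19 probe sets of 45037 in all and 8 genes of 18193. Slco1c1 lies on mouse chromosome 6, Crym on 7, Dio2 on 12, Thra on 11, Thrb and Hr on 14, Klf9 on 19 and Nrgn on 9. Affymetrix Mouse Genome 430 2.0 arrays measured their RNA in hypothalamic microdissections of the arcuate region from mice aged 2 weeks, whose strain was mixed C57Bl/6J, FVB/N and 129. The study compared 3 POMCDicerKO arrays, whose mice lost Dicer, the enzyme that makes mature microRNAs, in cells expressing pro-opiomelanocortin (Pomc), with 3 Control arrays, whose alleles the labels do not give. The labels also do not say which Cre line was used, or whether an array held 1 mouse or several. The submitters call the samples independent. If they share animals, the p-values below measure a spread that is partly technical.

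Thyroid hormone reaches the brain mostly as thyroxine, the prohormone, which crosses the vessel wall and the glia through transporters such as the one encoded by Slco1c1. Deiodinase type 2, the product of Dio2, is made by astrocytes and by tanycytes, the glial cells that line the third ventricle beside the arcuate nucleus, and converts thyroxine into the active hormone triiodothyronine. Triiodothyronine binds receptors encoded by Thra and Thrb, which sit on DNA with retinoid X receptors and switch genes such as Hr and Klf9, and the weeks after birth in rodents are a period of strong dependence on the hormone.

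Promoter sequences are shown for Nrgn, whose arrays separated by group, and for Klf9, which averaged higher at all of its 7 probe sets. Also shown are Dio2, which spread widely and has a known control element, and Thrb, the receptor gene whose promoter held a core binding hexamer. The Slco1c1 window is not shown, though that gene also averaged higher at its single probe set. The RefSeq promoter table, on build GRCm38.p6, had 6 sequences for 5 of the 8 genes, each of 300 bases, from 250 before to 50 after a transcription start. The array values carry no genome build, so these windows serve only to show the genes. Capitals mark matches to the receptor hexamer AGGTCA, on either strand, and to the palindromic cyclic AMP response element TGACGTCA. The windows are chr12:90738989-90739288 on the minus strand for Dio2, chr9:37552696-37552995 on the minus strand for Nrgn, chr19:23140976-23141275 on the plus strand for Klf9 and chr14:17660710-17661009 on the plus strand for the upstream start of Thrb.
Dio2: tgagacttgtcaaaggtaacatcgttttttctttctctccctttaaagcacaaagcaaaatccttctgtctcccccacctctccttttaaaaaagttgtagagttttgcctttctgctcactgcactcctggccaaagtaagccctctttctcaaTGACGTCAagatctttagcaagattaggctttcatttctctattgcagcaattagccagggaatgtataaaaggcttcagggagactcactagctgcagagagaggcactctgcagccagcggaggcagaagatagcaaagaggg
Nrgn: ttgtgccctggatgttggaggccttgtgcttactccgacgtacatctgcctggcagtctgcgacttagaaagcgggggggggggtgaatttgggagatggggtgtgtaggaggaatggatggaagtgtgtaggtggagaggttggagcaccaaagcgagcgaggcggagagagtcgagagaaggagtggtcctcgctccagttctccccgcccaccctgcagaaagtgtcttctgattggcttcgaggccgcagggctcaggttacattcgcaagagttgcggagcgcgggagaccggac
Klf9: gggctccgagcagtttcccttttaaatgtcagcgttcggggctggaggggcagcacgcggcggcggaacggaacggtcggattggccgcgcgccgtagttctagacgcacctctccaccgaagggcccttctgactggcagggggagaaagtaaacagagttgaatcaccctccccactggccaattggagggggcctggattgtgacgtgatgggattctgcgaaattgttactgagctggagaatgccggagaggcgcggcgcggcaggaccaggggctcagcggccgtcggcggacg
Thrb: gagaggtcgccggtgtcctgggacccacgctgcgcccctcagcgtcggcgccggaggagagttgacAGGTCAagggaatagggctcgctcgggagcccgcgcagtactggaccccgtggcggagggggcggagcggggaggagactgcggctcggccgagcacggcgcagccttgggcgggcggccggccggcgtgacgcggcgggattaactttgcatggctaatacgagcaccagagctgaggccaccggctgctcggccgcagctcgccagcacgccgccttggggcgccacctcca
The Dio2 window held 1 cyclic AMP response element, whose first base lay 95 bases before the start. Such an element was present in 1.79% of 32851 promoter windows. The upstream Thrb window held 1 core hexamer, 184 bases before the start, and 16.3% of all windows held at least 1. The windows of Dio2, Nrgn, Klf9 and Slco1c1 and the downstream Thrb window held none. The direct repeat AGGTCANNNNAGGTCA, on either strand, was in none of the 6 windows and in 0.0152% of all. A match is a string of letters, and its absence from a window of this length says nothing about where the receptors bind.

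All arrays came from tissue with arcuate transcripts. Of the 8 arcuate neuron genes measured, among them Pomc, Npy, Tbx3 and Ghrh, 0 had a mean log2 level under 6 (array medians lay between 6.02 and 6.05, and the scale began at 3.05), and their average ran from 8.79 to 9.33 on POMCDicerKO arrays and from 9.15 to 9.67 on Control arrays. The Y-linked Eif2s3y lay between 9.04 and 9.53 on the 6 arrays and Xist between 4.51 and 5.52. Some arrays stood apart in marker genes of other cells. Averaged over 10 meningeal and fibroblast genes, the log2 distance from the Control mean was -0.69, -1.01 and -1.41 on POMCDicerKO arrays 1 to 3, against 0.47, 0.49 and -0.96 on Controls 1 to 3. Over 8 genes of mature oligodendrocytes it was 0.78, 0.11 and 0.43, against 0.13, -0.16 and 0.031. Over the arcuate neuron genes it was -0.59, -0.053 and -0.28, against -0.24, 0.29 and -0.052. Fewer cells of a type and less RNA per cell cannot be told apart in such tissue.

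POMCDicerKO arrays had lower Nrgn than any Control array, and for the other 7 genes the groups overlapped at every probe set. Of the 19 probe sets, 0 passed limma's threshold of an adjusted p under 0.05, as did 0 of all 45037 (0%). At an unadjusted p under 0.05 there was 1 member probe set (5.26%), against 1098 of all probe sets (2.44%, or 1.2% lower in POMCDicerKO as the member was). The groups did not overlap at 1 member probe set (5.26%), against 6.36% of all and 3.22% with all POMCDicerKO arrays lower, so this share lay near the background. On average 14 of the 19 were higher and 5 lower, where 50.6% of all probe sets were higher. Of the 14, 7 belonged to Klf9 alone, and probe sets of a gene are not separate evidence. Taking for each gene the probe set with the highest mean, its main probe set, 5 genes were higher and 3 lower. The median log2 fold change of the main probe sets (POMCDicerKO minus Control) was 0.033 over the 8 genes and -0.0099 over all 18193 genes. The median size of the change, regardless of sign, was 0.18 for the 8 genes and 0.051 for all genes. Of the 8 main probe sets 7 had a mean level of at least 6, and all genes were not matched to them for level. The 8 genes were chosen with earlier results of these data known, so this comparison is only a description. Some of the sizes changed much with a single array left out, as given below for Slco1c1, Crym, Dio2, Hr and Klf9.

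**Figure D1:**
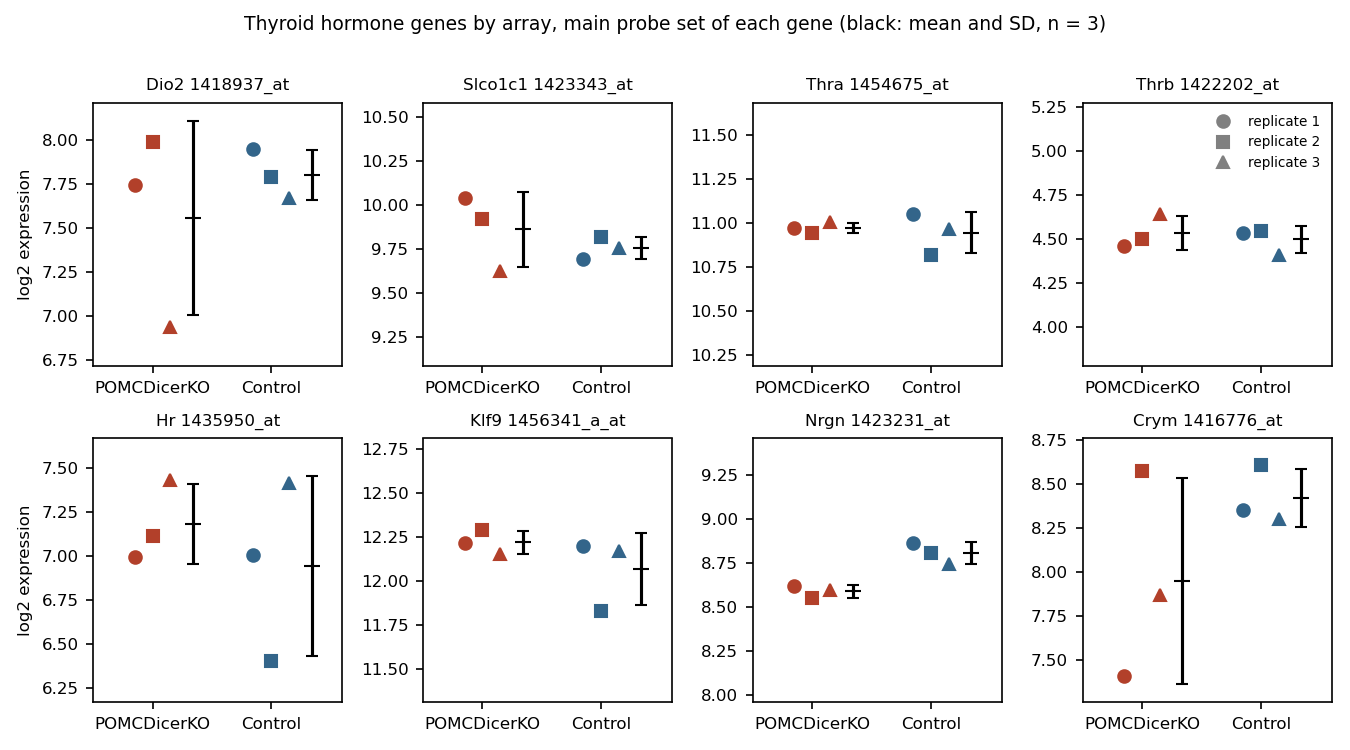
Log2 expression of the main probe set of each of the 8 genes on the 3 POMCDicerKO arrays (left, red) and the 3 Control arrays (right, blue), with the mean and SD in black and every panel spanning the same height. Only in the Nrgn panel do the groups not overlap, while Dio2 shows 1 low POMCDicerKO array, Crym shows 2, and Hr and Klf9 a low Control 2.

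Among the transport and binding genes, Slco1c1 and Crym differed in which arrays stood out. Slco1c1 encodes OATP1C1, a thyroxine transporter of brain vessels and astrocytes. Its single probe set, 1423343_at, read 10.04, 9.92 and 9.63 on the POMCDicerKO arrays and 9.69, 9.82 and 9.76 on the Control arrays. POMCDicerKO 1 and 2 lay above every Control array and POMCDicerKO 3 below all of them. The log2 fold change was 0.11 with a standard error of 0.11 and a 95% interval from -0.15 to 0.36 (limma adjusted p = 1.00, two-sided exact permutation p = 0.5). Without POMCDicerKO 3 it was 0.22, and without POMCDicerKO 1 it was 0.018. Beside it, 9 endothelial genes averaged 8.21 to 8.31 on POMCDicerKO arrays and 8.18 to 8.23 on Control arrays. POMCDicerKO 3 was the lowest of the 6 arrays for 1 of the 9, the membrane protein gene Itm2a (10.75), and the highest for 3, Flt1 among them (8.53). Over 9 astrocyte genes the log2 distance from the Control mean was 0.023, 0.035 and -0.066 on POMCDicerKO 1 to 3. On Controls 1 to 3 it was -0.021, 0.064 and -0.042. POMCDicerKO 3 was the lowest array for 3 of these 9 genes. The part of vessel cells and astrocytes in the Slco1c1 values was not tested.

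Crym encodes mu-crystallin, a cytosolic protein that binds triiodothyronine, and it is found in tanycytes and in some neurons. It read 7.41, 8.57 and 7.87 on the POMCDicerKO arrays and 8.35, 8.61 and 8.30 on the Control arrays at its single probe set, 1416776_at. POMCDicerKO 1 and 3 lay below every Control array, while POMCDicerKO 2 lay within the Control range. The means were 7.95 ± 0.59 in POMCDicerKO and 8.42 ± 0.16 in Control (SD, n = 3 each). The log2 fold change of -0.47 (standard error 0.26, 95% interval from -1.08 to 0.13) was the largest in size of the 19 and corresponds to a 1.39-fold lower level in POMCDicerKO, within the spread of its own group (limma adjusted p = 1.00, two-sided exact permutation p = 0.3). It was -0.20 without POMCDicerKO 1 and -0.78 without POMCDicerKO 2. The SD among POMCDicerKO arrays exceeded that of 99.6% of the 4915 probe sets within 0.5 of its mean level.

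The low arrays for Crym were also low on average in tanycyte and arcuate genes, though not in every gene. Averaged over 10 tanycyte genes, the distance from the Control mean was -0.35, 0.028 and -0.21 on POMCDicerKO 1 to 3, against -0.12, 0.20 and -0.08 on Controls 1 to 3. Col23a1, a collagen of tanycytes, read 7.25, 8.36 and 7.91 on POMCDicerKO arrays and 8.03, 8.58 and 8.15 on Control arrays. Tbx3, a transcription factor of arcuate neurons, read 6.38, 7.49 and 7.01 on POMCDicerKO arrays and 7.04, 8.02 and 7.41 on Control arrays. For Crym, Col23a1 and Tbx3 alike, POMCDicerKO 1 was the lowest of the 6 arrays, POMCDicerKO 3 the next and Control 2 the highest. Col23a1 and Tbx3 were named for sharing this order. Lhx2 of the tanycyte list and Pomc of the arcuate list shared it too, and the other genes of those lists did not. POMCDicerKO 1 was the lowest array for 5 of the 10 tanycyte genes and 5 of the 8 arcuate neuron genes. It was the highest for Nes, the intermediate filament gene nestin (7.49), and the next to highest for the arcuate peptide gene Cartpt (10.38). Adm, adrenomedullin, of the tanycyte list, was highest on POMCDicerKO 3 (6.22). The part of cell makeup in the Crym values was not tested.

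Dio2, the gene of the activating deiodinase, read 7.74, 7.99 and 6.93 on the POMCDicerKO arrays and 7.95, 7.79 and 7.67 on the Control arrays at its main probe set, 1418937_at. A single array, POMCDicerKO 3, lay below the other 5, and POMCDicerKO 2 was the highest of all. The means were 7.56 ± 0.55 in POMCDicerKO and 7.80 ± 0.14 in Control (SD, n = 3 each), and the log2 fold change was -0.25 (standard error 0.24, 95% interval from -0.81 to 0.32, limma adjusted p = 1.00, two-sided exact permutation p = 0.7). Without POMCDicerKO 3 the value turned to 0.065. The SD among POMCDicerKO arrays exceeded that of 99.4% of the 5172 probe sets within 0.5 of this level. The remaining probe sets lay lower on the scale, with means of 5.38 in POMCDicerKO and 5.43 in Control at 1426081_a_at, and of 5.40 in POMCDicerKO and 5.37 in Control at 1418938_at. POMCDicerKO 3 was the lowest array at 1426081_a_at (5.21) but the next to highest at 1418938_at (5.58), so the low reading was shared by 2 of the 3 probe sets.

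Some transcripts of the ventricle wall and of glia were low on the same array, and others of the same lists were not. Ttr, which encodes transthyretin, a thyroxine carrier made by the choroid plexus, read 10.22, 11.41 and 7.20 on POMCDicerKO arrays, against 10.99, 9.10 and 9.87 on Control arrays. Aqp4, the astrocyte water channel, read 10.72, 10.76 and 10.22 on POMCDicerKO arrays and 10.49, 10.97 and 10.43 on Control arrays. POMCDicerKO 3 was the lowest of the 6 for both, which were named for that. It was the lowest for 3 of the 9 astrocyte genes and, among 8 choroid plexus genes, for Ttr alone, while Aqp1 and Slc4a5 of that list were highest on it. Over 9 astrocyte genes together POMCDicerKO 3 stood at -0.066 and the other 5 arrays between -0.042 and 0.064, and over 8 choroid plexus genes at -0.40, where the other 5 stood between -0.087 and 0.090. Ttr made most of the -0.40. Without Ttr, an alternative added after seeing the data, POMCDicerKO 3 stood at -0.061 over the other 7 choroid plexus genes, against -0.13 on both POMCDicerKO 1 and 2 and -0.040, 0.066 and -0.026 on the Control arrays. Without Aqp4, likewise added, it stood at -0.022 over the other 8 astrocyte genes, as did Control 3. Of the 8 choroid plexus genes 5 had a mean level under 6. Over the 10 tanycyte genes POMCDicerKO 3 stood at -0.21, where Dio2 was at -0.87. The tanycyte list was lower on POMCDicerKO 1, at -0.35, where Dio2 was at -0.059. POMCDicerKO 3 was the lowest array for 2 of the 10 tanycyte genes and POMCDicerKO 1 for 5. The part of these cell types in the Dio2 value was not tested. Dio2 lies on chromosome 12, as does Dicer1, with 84 protein-coding genes between them in the RefSeq gene order.

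**Figure D2:**
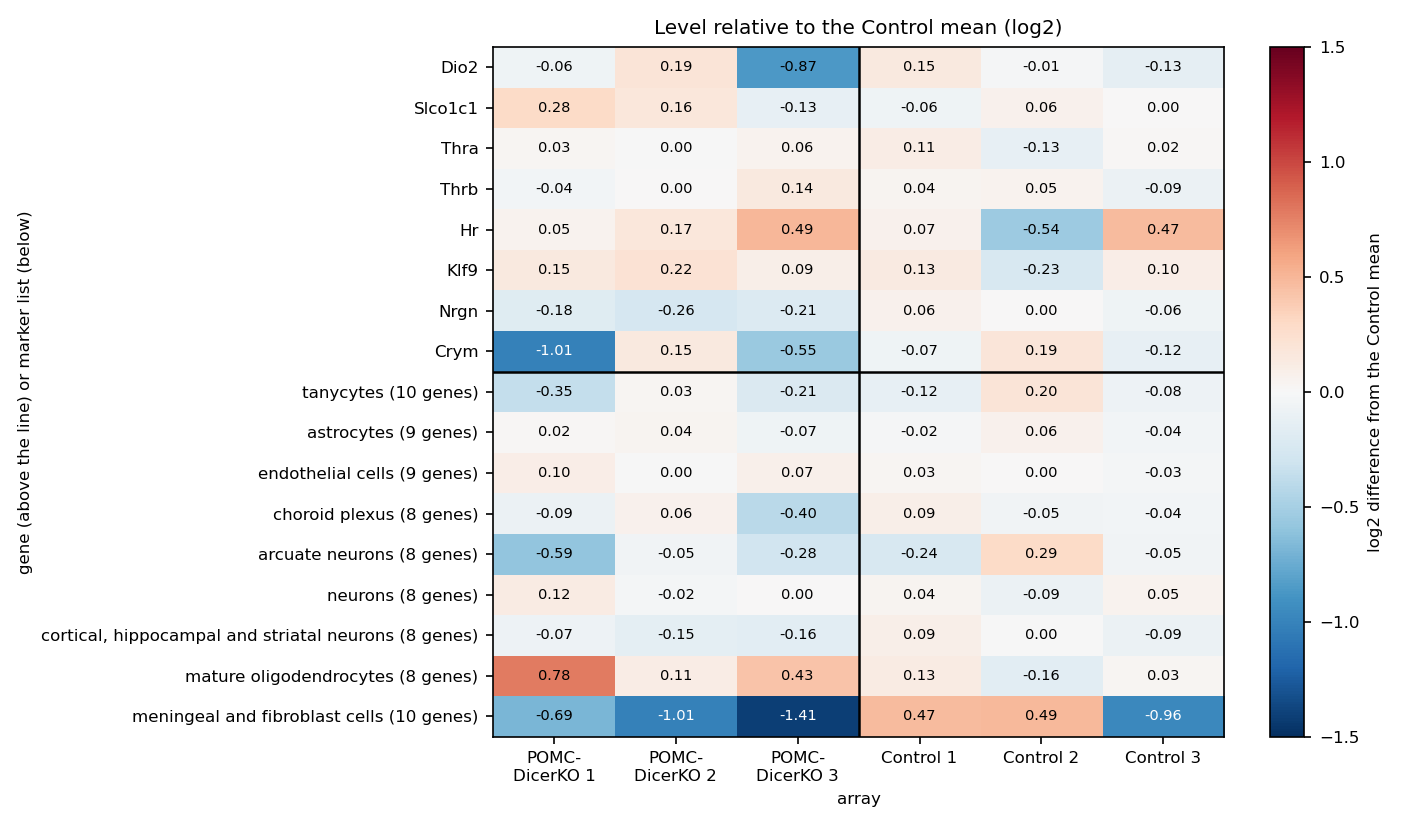
Log2 difference from the Control mean on each array (columns, POMCDicerKO left of the line and Control right of it) for the main probe sets of the 8 genes (upper rows) and for marker lists averaged over their genes (lower rows). Dio2 is at -0.87 on POMCDicerKO 3 and Crym at -1.01 on POMCDicerKO 1, where the tanycyte list is at -0.35 and the arcuate neuron list at -0.59.

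The receptor genes showed the smallest differences. Thra encodes thyroid hormone receptor alpha, the main form in brain. Its main probe set, 1454675_at, read 10.97, 10.94 and 11.00 on the POMCDicerKO arrays and 11.05, 10.82 and 10.97 on the Control arrays. All POMCDicerKO values lay inside the Control range. The log2 fold change was 0.028 with a standard error of 0.076 and a 95% interval from -0.15 to 0.21, whose ends correspond to levels 1.11-fold lower and 1.15-fold higher in POMCDicerKO (limma adjusted p = 1.00, two-sided exact permutation p = 0.8). Probe sets 1443952_at and 1426997_at gave -0.02 and 0.037. The SD among POMCDicerKO arrays at the main probe set exceeded that of 15.2% of probe sets of like level, the lowest such share but those of Nrgn (12.4%) and of Thra 1443952_at (8.06%).

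The Thra locus also yields an overlapping transcript from the opposite strand, Nr1d1, the clock repressor REV-ERB alpha. Nr1d1 read 5.11, 5.18 and 5.82 on POMCDicerKO arrays and 5.12, 5.40 and 5.68 on Control arrays, and Thra 1426997_at read 7.49, 7.46 and 7.62 on POMCDicerKO arrays and 7.42, 7.43 and 7.62 on Control arrays. In both groups replicate 3 was the highest for both probe sets. Neither differed detectably between the groups.

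Thrb encodes receptor beta, whose alternative starts give forms used in the hypothalamus, in the pituitary and in the retina and cochlea, and the array has a single probe set for it, 1422202_at. It read 4.46, 4.50 and 4.64 on POMCDicerKO arrays and 4.54, 4.55 and 4.41 on Control arrays, close to the lower end of the scale, where differences are compressed. The groups overlapped (log2 fold change 0.037, standard error 0.077, limma adjusted p = 1.00). These values do not say which start was used, nor that the gene was silent.

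The response genes Hr and Klf9 were higher on average in POMCDicerKO at each of their 9 probe sets, and Control 2 was their low array. Hr encodes hairless, a corepressor of thyroid hormone receptors that is itself induced by the hormone in brain. Its main probe set, 1435950_at, read 6.99, 7.11 and 7.43 on the POMCDicerKO arrays and 7.01, 6.40 and 7.42 on the Control arrays. Its other probe set, 1422110_at, read 6.03, 6.45 and 6.20 on the POMCDicerKO arrays and 6.22, 5.80 and 6.14 on the Control arrays. Control 2 was the lowest array at both. The log2 fold changes were 0.24 with a standard error of 0.24 and 0.18 with a standard error of 0.14 (limma adjusted p = 1.00 and two-sided exact permutation p = 0.5 for both). Without Control 2 they were -0.031 and 0.051. At 1435950_at the SD among Control arrays exceeded that of 97.8% of probe sets of like level.

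Klf9 encodes a Krüppel-like transcription factor that thyroid hormone and glucocorticoids induce directly in neurons. Its main probe set, 1456341_a_at, read 12.22, 12.29 and 12.16 on the POMCDicerKO arrays and 12.20, 11.83 and 12.17 on the Control arrays. The POMCDicerKO arrays lay close together around the values of Controls 1 and 3, with Control 2 below them. The log2 fold change was 0.15 with a standard error of 0.11 and a 95% interval from -0.094 to 0.40 (limma adjusted p = 1.00, two-sided exact permutation p = 0.3), or 0.035 without Control 2. Over all 7 probe sets, log2 fold changes ran from 0.040 at 1452723_at to 0.20 at 1436952_at, and Control 2 was the lowest array at 5 of them.

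Averaged over its 7 probe sets, Klf9 read 8.98, 8.99 and 8.91 on POMCDicerKO arrays and 8.93, 8.73 and 8.87 on Control arrays. POMCDicerKO 3 lay below Control 1, so the groups overlapped. The mean was 8.96 ± 0.041 in POMCDicerKO and 8.84 ± 0.10 in Control (SD, n = 3 each), a difference of 0.12 (two-sided exact permutation p = 0.2). Without Control 2 the difference was 0.06 with 6 of 7 probe sets higher, and without Control 3 it was 0.13 with 5 of 7 higher. Probe sets of a gene are read on the same arrays, so their common sign is not separate evidence. Of the 149 genes with 7 or more probe sets, 9 (6.04%) were higher at every probe set.

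Control 2 was at the same time the array with the most arcuate signal, but it also stood apart in other cell types. It was the highest array for 6 of 8 arcuate neuron genes, 6 of 10 tanycyte genes and 6 of 10 meningeal and fibroblast genes. It was the lowest for 6 of 8 mature oligodendrocyte genes and 5 of 8 general neuron genes. For Pomc, Control 2 was the highest array at 10.87, against 9.35 to 9.71 on POMCDicerKO arrays and 9.94 and 9.76 on Controls 1 and 3. Slc7a5, an amino acid transporter that also carries thyroid hormone, was lowest on Control 2 too, at 9.23, against 9.49, 9.48 and 9.45 on POMCDicerKO arrays and 9.51 and 9.37 on Controls 1 and 3. Its log2 fold change was 0.097. Whether the low Hr and Klf9 readings of Control 2 go with its cell makeup was not tested.

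**Figure D3:**
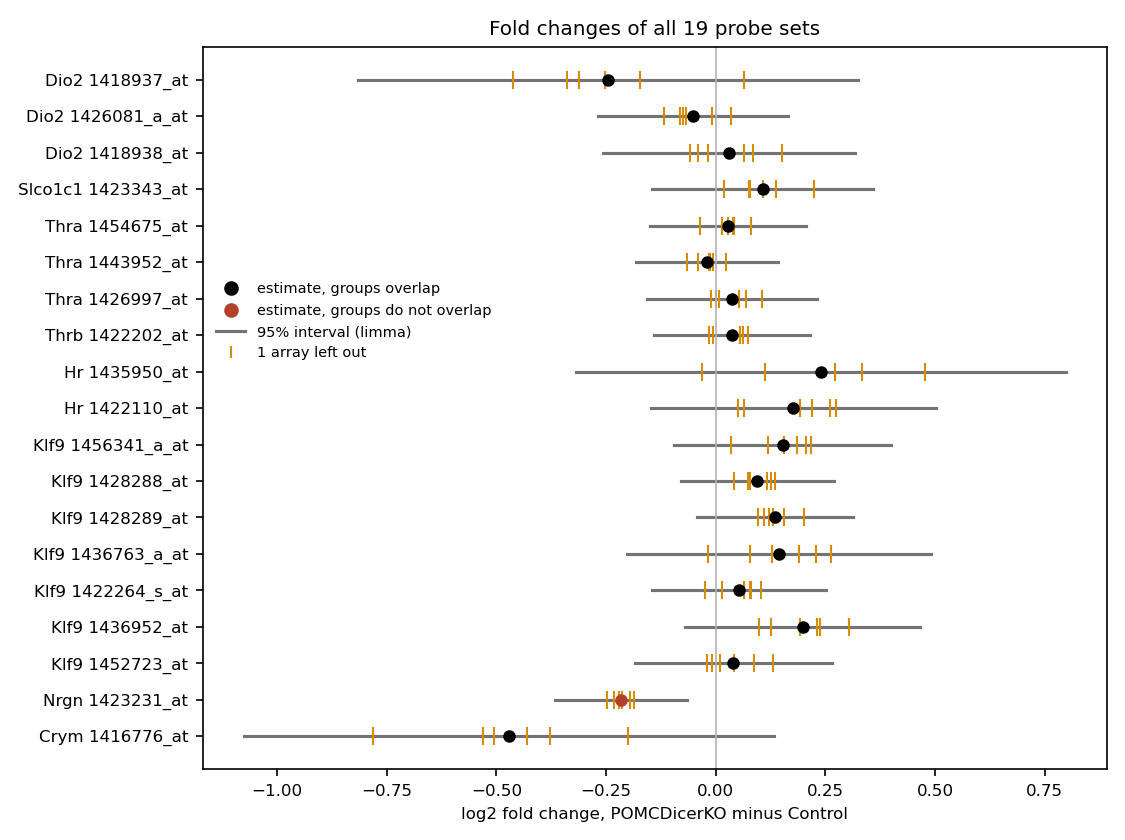
Log2 fold change (POMCDicerKO minus Control, horizontal axis) of all 19 probe sets, with limma's 95% interval as a grey line and the values with 1 array left out as orange ticks. The interval lies below 0 for Nrgn alone, from -0.37 to -0.065, and the ticks fall on both sides of 0 for 11 of the 19.

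Nrgn was the member whose arrays separated. It encodes neurogranin, a postsynaptic calmodulin-binding protein that is abundant in forebrain neurons and depends on thyroid hormone in the caudate and other regions of the rodent brain. Its single probe set, 1423231_at, read 8.62, 8.55 and 8.60 on the POMCDicerKO arrays and 8.87, 8.81 and 8.74 on the Control arrays. The highest POMCDicerKO value lay below the lowest Control value, and both groups were tight. The means were 8.59 ± 0.037 in POMCDicerKO and 8.81 ± 0.062 in Control (SD, n = 3 each). The log2 fold change was -0.22 with a standard error of 0.065, or a level in POMCDicerKO of 86.1% of Control. The unadjusted p of limma was 0.011, the adjusted p = 1.00 over all probe sets, and the two-sided exact permutation p was 0.1, the smallest that 3 against 3 arrays can give.

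Leaving out single arrays gave Nrgn values from -0.25 to -0.19. With Control 3 as the only control, which leaves out the Controls with much meningeal RNA, it was -0.15 with a standard error of 0.096. Genes of cortical, hippocampal and striatal neurons, where neurogranin is most abundant, were measured too. Of 8 such genes, 5 had a mean level of at least 6, among them the transcription factor gene Mef2c at 8.35 and the dopamine receptor gene Drd1 at 7.68. Of the 8, 7 were lower on average, where 50.6% of all probe sets were higher, and their median log2 fold change was -0.093. The average of the 8 ran from 6.19 to 6.28 on POMCDicerKO arrays and from 6.26 to 6.44 on Control arrays. The cortical factors Neurod6 and Tbr1 and the glutamate transporter gene Slc17a7, the 3 under 6, had means of 3.88, 4.19 and 4.60, near the lower end of the scale. Over 8 general neuron genes the distance from the Control mean was 0.12, -0.024 and 0.0019 on the POMCDicerKO arrays, and 5 of the 8 were higher on average. The part of such cells in the Nrgn value was not tested.

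Other genes of thyroid hormone handling gave no call. Of 8 measured genes of transport, binding and deiodination, 4 were higher and 4 lower on average, 0 passed the adjusted threshold and 0 had an unadjusted p under 0.05. Their median was 0.002. The smallest p belonged to Slc16a10, an aromatic amino acid and thyroid hormone transporter, at -0.13 with a standard error of 0.096, followed by Slc7a5. Dio1, the deiodinase of liver and kidney, was at 0.070 and the transporter gene Slco1a4 of brain vessels at -0.040. Of 13 receptor partners and coregulators, 2 were higher and 11 lower, where 50.6% of all probe sets were higher. Their median was -0.034, and 0 had an unadjusted p under 0.05. The coactivator genes Ncoa2, Ep300 and Crebbp were at -0.083, -0.10 and -0.066, and Tbl1xr1 of the corepressor complex was at 0.063. The retinoid X receptor genes Rxra, Rxrb and Rxrg, whose products pair with thyroid hormone receptors, were at 0.0013, -0.026 and -0.062.

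Of 13 other genes known to respond to thyroid hormone in brain, 5 were higher and 8 lower, with a median of -0.024, and 0 passed the adjusted threshold. At an unadjusted p under 0.05 there were 0 higher and 2 lower genes (1.2% of all probe sets were called lower). These were Ptgds, a prostaglandin synthase that also belongs to the meningeal list above, of which 10 of 10 genes were lower on average, at -2.64, and Dbn1, drebrin of dendritic spines, at -0.24 with a standard error of 0.097. Dbn1 read 9.10, 9.23 and 9.11 on POMCDicerKO arrays and 9.23, 9.57 and 9.35 on Control arrays. Its groups came within rounding of each other without overlapping, as did not overlap, with POMCDicerKO lower, those of 3.22% of all probe sets. Mbp, the myelin basic protein, which also belongs to the oligodendrocyte list, of which 8 of 8 genes were higher on average, was at 0.12, and Kcnc1, a fast potassium channel, was also at 0.12.

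Of 8 genes of the axis from hypothalamus to thyroid, 3 were higher and 5 lower, with a median of -0.0057 and 0 past the adjusted threshold. Cga, the alpha subunit of thyrotropin, which is made in the pituitary and in the pars tuberalis beneath the arcuate nucleus, spread widely. It read 8.67, 5.08 and 6.27 on POMCDicerKO arrays and 9.46, 9.87 and 7.80 on Control arrays, and limma gave a log2 fold change of -2.37 (standard error 0.89, unadjusted p = 0.0302). The groups overlapped through POMCDicerKO 1 and Control 3. The average of 5 pituitary genes, Cga among them, ran from 4.94 to 6.44 on POMCDicerKO arrays and from 5.66 to 6.18 on Control arrays. That average joins genes of both directions, 2 higher and 3 lower, and 3 of the 5 had a mean level under 6. At an unadjusted limma p under 0.05 there were 2 higher and 1 lower, against 2.44% of all probe sets. The part of pituitary tissue in the Cga value was not tested. Tshb, the beta subunit of thyrotropin, was near the lower end of the scale with means of 4.89 in POMCDicerKO and 5.23 in Control and a log2 fold change of -0.34. Tshr, its receptor, was at -0.18, and Trh, the releasing hormone of the axis, at 0.16 with a standard error of 0.20.

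**Figure D4:**
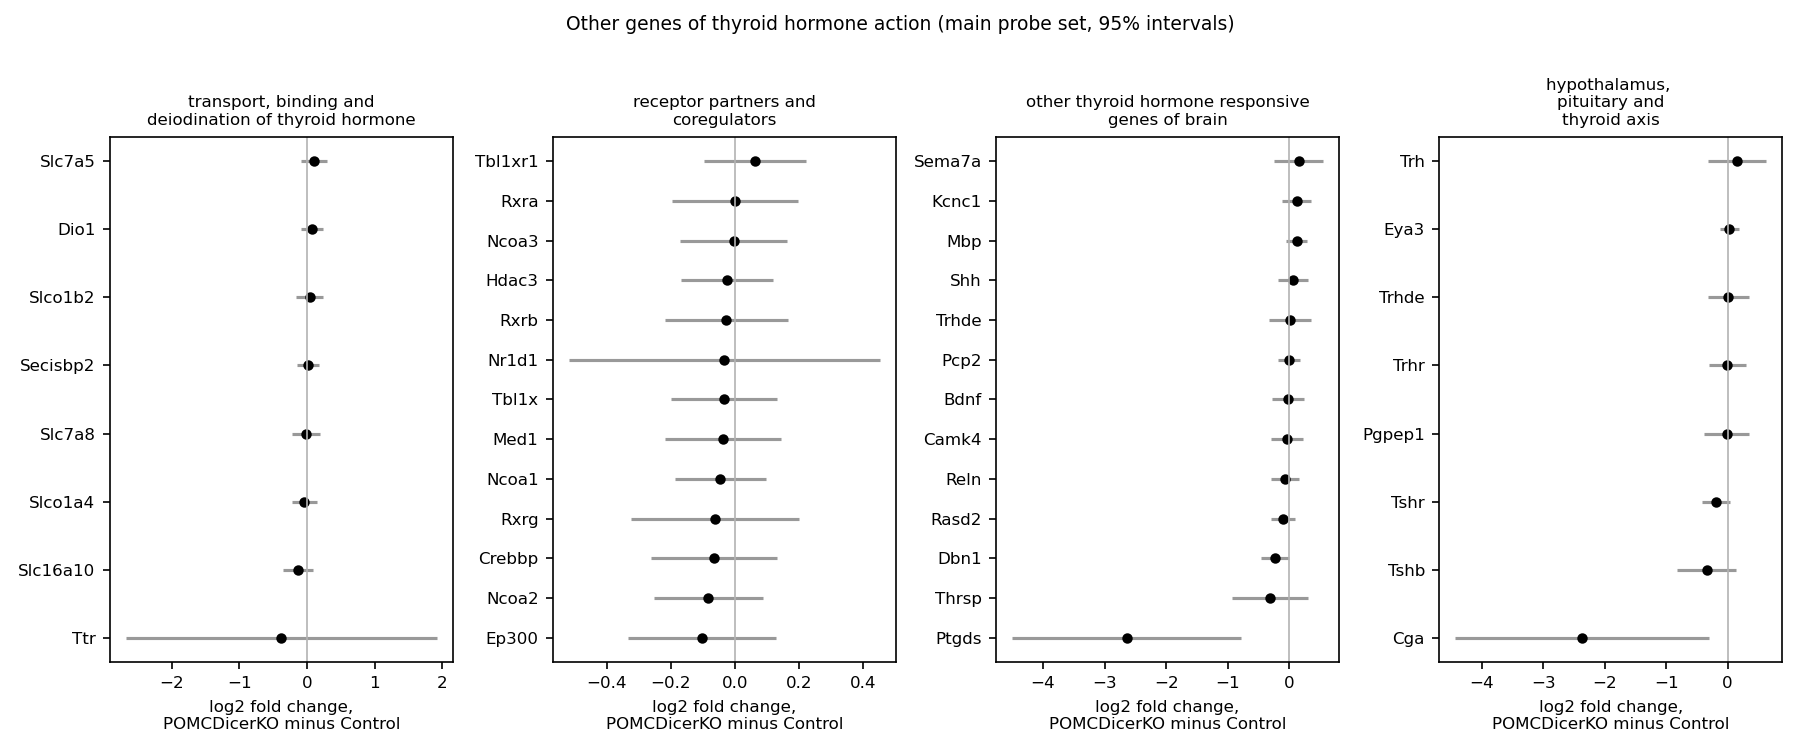
Log2 fold change (POMCDicerKO minus Control, horizontal axes, scaled per panel) and limma's 95% interval for the main probe set of other genes of thyroid hormone action, in 4 lists. Most intervals cross 0, and those of Ptgds, Dbn1 and Cga lie below it.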

How the data were processed

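The authors deposited log2 values, made with RMA and the affy package per the submitters' processing notes. Their versions are not given in the sources. RMA removes background, quantile-normalises and merges each set's probes, and so also hides any shift common to most transcripts. The deposited log2 values were not changed, and precision is limited by having 3 arrays a group.

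Groups and replicate numbers came from the sample titles, and the 64 AFFX controls were dropped. Probe sets were named from the array annotation, with Entrez identifiers used to update symbols to the GRCm38.p6 gene table. POMCDicerKO and Control arrays were compared in limma 3.58.1 under R 4.3.3 (lmFit, eBayes), with Benjamini-Hochberg adjustment over 45037 probe sets and 95% intervals. Single values were compared by two-sided exact permutation of the 6 arrays. The scripts were tested on simulated data. The 8 genes, the lists and the tests were chosen with earlier results of these data known. Every member was named with its probe sets. In each list of related genes, up to 4 with the smallest unadjusted p were named. Other genes are named beside a member's value and were chosen after values were seen. Alternatives were array centring, further quantile normalisation, filters on level, a trended robust prior, array weights, no moderation, a replicate block, 1 probe set per gene and arrays left out. The labels give no batch.

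Arrays were not duplicates, correlating across probe sets at a Pearson r of 0.994 to 0.997. Deviations from the group means correlated between same-numbered arrays at 0.128, 0.0787 and 0.12. Differently numbered arrays were not compared in this way, so these values do not settle whether the numbers mark pairs. The main fit did not take them as pairs, and the replicate block was run as an alternative.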

Additional observations from a re-analysis of the deposited data

How the results depend on the processing

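With single arrays left out, 99 of 114 fold changes of the 19 probe sets kept their direction, and 15, at 11 probe sets, turned. Under the other alternatives 167 of 171 kept it, but many of these could not turn. The level filters, trended robust prior, no moderation, replicate block and 1 probe set per gene leave a fold change as it was. Only array centring, further quantile normalisation, array weights and Control 3 as the only control can move it. None of the 19 probe sets passed the adjusted threshold under any alternative run. Leaving out single arrays gave log2 fold changes from -0.46 to 0.065 for Dio2 1418937_at, -0.12 to 0.035 for Dio2 1426081_a_at, -0.059 to 0.15 for Dio2 1418938_at, -0.035 to 0.081 for Thra 1454675_at, -0.066 to 0.022 for Thra 1443952_at, -0.012 to 0.10 for Thra 1426997_at, -0.016 to 0.074 for Thrb 1422202_at, -0.031 to 0.48 for Hr 1435950_at, -0.019 to 0.26 for Klf9 1436763_a_at, -0.024 to 0.10 for Klf9 1422264_s_at and -0.020 to 0.13 for Klf9 1452723_at. With array weights Dio2 1418938_at was at -0.011. With Control 3 as the only control, assumed to vary like the POMCDicerKO arrays, Thra 1426997_at was at -0.098, Hr 1435950_at at -0.24 and Klf9 1436952_at at -0.011, the median of the 8 genes was -0.052, 0 of the 19 had an unadjusted p under 0.05, and 1 of all probe sets passed. A trended robust prior also gave 1 of all probe sets, and single arrays left out gave 0 to 2. Member probe sets with an unadjusted p under 0.05 numbered 1 to 2 with single arrays left out and 2 with the replicate block, which added Crym. The median of the 8 genes ran from -0.033 to 0.065 with single arrays left out. The causes were not tested. Thrb and the weaker Dio2 probe sets read low on the scale, where differences are compressed.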

Other observations

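The genes whose level followed each member most closely over the 6 arrays were taken by Pearson r among 5504 or 5505 genes with a mean of at least 6 and an SD over the arrays of at least 0.1. They were picked for likeness from 6 arrays that differ in cell makeup, so r is a description. For Dio2 they were Mrps6 of the mitochondrial ribosome (r = 0.994), the matricellular protein gene Ccn1 (r = 0.987) and the cold shock protein gene Ybx3 (r = 0.986). Ccn1 read 6.51, 6.74 and 6.09 on POMCDicerKO arrays and 6.65, 6.55 and 6.45 on Control arrays, with POMCDicerKO 3 again the lowest. For Crym they were the sodium channel gene Scn9a (r = 0.989), the extracellular glutathione peroxidase gene Gpx3 (r = 0.983) and Dpy19l4 (r = 0.974). For Slco1c1 they were Ss18 (r = 0.992), Cnmd (r = 0.983) and Cemip2 (r = 0.973), and for Hr they were Tpd52l1 (r = 0.994), Rlf (r = 0.976) and Pcsk5 (r = 0.974).

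For Klf9 they were Strbp (r = 0.988), Cnot6l (r = 0.987) and Ggps1 (r = 0.973). All were lowest on Control 2, where Ggps1, of isoprenoid synthesis, read 8.16, against 8.94, 8.94 and 8.83 on POMCDicerKO arrays and 8.95 and 8.90 on Controls 1 and 3. For Nrgn they were Zfp341 (r = 0.980), Gm5617 (r = 0.967) and Mgp, the matrix Gla protein of vessel walls and meninges (r = 0.964), which read 8.54, 7.96 and 8.47 on POMCDicerKO arrays and 9.53, 9.28 and 8.71 on Control arrays. For Thra they were Rpgrip1, Nell1 and Blmh, and for Thrb they were Htr3a, Birc7 and 1810044D09Rik, but Thra and Thrb had an SD over the arrays of only 0.078 and 0.080.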
